A study of Mus musculus with 5480 samples.

Results

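The fibroblast precursors of the fetal mouse lung at embryonic day 18.5, just before birth, are described here from single-cell RNA sequencing of mesenchymal cells. They are the cells that the study's authors labelled Fibroblast precursor and that came from the E18.5 group, whose treatment label is normal. The label covered 760 of the 1206 E18.5 cells, 425 from a female (FE18.5) and 335 from a male (ME18.5), out of 5480 cells in the deposited table. It was given to 764 cells at all ages, of which 4 came from postnatal day P1. The study asked how the kinds of mesenchymal cell in the lung change from late gestation through the first weeks of life and under hyperoxia, meaning raised oxygen after birth. Cells came from the distal lung and each was sequenced in its own well, so no barcodes were shared between libraries. The titles of 19 E18.5 cells, 15 of them precursors, carry CD31 in place of the mesenchymal label of the rest. The labels give each cell 1 of 2 mouse names without saying whether a name is 1 animal or a pool, and each name is treated here as 1 mouse. With 1 female and 1 male, the mouse, its sex and its main sequencing run cannot be told apart. Mouse strain was not given in the sources used here.

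Lung fibroblasts arise from mesenchyme that surrounds the branching epithelium. The mesenchyme sends the epithelium growth factors such as FGF10 and WNT2, which direct budding and the specification of the respiratory lineage, and receives Sonic hedgehog and PDGF in return. Before birth part of it will give rise to the matrix and lipid fibroblasts of the alveolar wall. Another part will give rise to contractile cells (myofibroblasts and smooth muscle). TCF21, a basic helix-loop-helix transcription factor, marks the fibroblast side of this division in the lung.

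The subtype labels were made by the authors from the expression of the same cells. A test of one subtype against another therefore measures how alike the 2 mice were, and is no evidence that a subtype exists. Reads were summed over the cells of each subtype in each mouse, which gave 12 sums for the 6 subtypes with at least 10 cells in both mice. Levels are CPM (the read count scaled to the library's total reads) after TMM scaling, given for the female and then the male, and log2 fold changes are precursors minus the other subtype with the standard error of the fit (SE). "Passed" means an adjusted p below 0.05 by edgeR's quasi-likelihood test with Benjamini-Hochberg adjustment over all 14190 genes tested. The other fitted subtypes were the Myofibroblast and smooth muscle precursors, called contractile precursors here (101 and 123 cells), early adventitial fibroblasts (26 and 29), early alveolar fibroblasts (14 and 24), pericytes (14 and 14) and proliferating fibroblasts (35 and 28). Vascular smooth muscle, myofibroblasts and the cycling cells of the latter lineages were too few to be fitted.

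Fibroblast precursors were the commonest E18.5 mesenchymal cells in this table. They made up 67.8% of the female's cells (95% Wilson interval 64.0 to 71.3) and 57.9% of the male's (53.8 to 61.8). On the 2 plates of the female the share was 64.1% and 70.5%, and on the 2 plates of the male 54.4% and 61.0%. The intervals cover counting error only, and the selection of cells before sequencing decides which were seen, so these are shares of sequenced cells. Proliferating fibroblasts made up 7.61% of the cells carrying either label in the female (5.52 to 10.4) and 7.71% in the male (5.39 to 10.9). Precursors had a median of 739847 and 862701 reads per cell and their sums held 333192382 and 350479301 reads. The entry CT010467.1 took a median 15.6% and 10.6% of a precursor's reads. Markers of other cell types were low in the precursor sums, at 55.4 and 41.1 CPM over the epithelial list, 97.1 and 83.2 over the endothelial list and 5.48 and 7.04 over the immune list. The largest member was Sftpc in the epithelial list (45.1 and 33.1 CPM per kilobase of exon) and Ramp2 in the endothelial list (25.0 and 22.1). The mesothelial list summed to 66.8 and 96.3 CPM. Its largest member was Upk1b, at 31.8 and 46.0 CPM per kilobase, and the other 5 were at 0.0814 or less. The list was at 0.0891 and 13.4 CPM in contractile precursors, 2.61 and 9.23 in early adventitial fibroblasts and 141.5 and 245.7 in early alveolar fibroblasts. In early alveolar fibroblasts the same 5 members had 0 reads in both mice, so that sum was Upk1b alone.

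All 5 markers chosen for the subtype were present in both mice, and the plot of their levels shows that they differ in how far they set precursors apart. The promoters of Tcf21 and Wnt2 are shown because Tcf21 passed the test against contractile precursors and Wnt2 against early adventitial fibroblasts and pericytes. Both sequences are the 250 bases before the start site in the RefSeq annotation of GRCm38.p6, on the minus strand, at chr10:22820144-22820393 for Tcf21 and chr6:18030446-18030695 for Wnt2.
Tcf21 promoter: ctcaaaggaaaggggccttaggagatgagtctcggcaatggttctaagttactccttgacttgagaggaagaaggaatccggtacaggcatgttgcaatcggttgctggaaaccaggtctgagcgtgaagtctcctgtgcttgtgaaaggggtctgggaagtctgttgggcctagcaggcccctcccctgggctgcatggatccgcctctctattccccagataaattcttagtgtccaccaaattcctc
Wnt2 promoter: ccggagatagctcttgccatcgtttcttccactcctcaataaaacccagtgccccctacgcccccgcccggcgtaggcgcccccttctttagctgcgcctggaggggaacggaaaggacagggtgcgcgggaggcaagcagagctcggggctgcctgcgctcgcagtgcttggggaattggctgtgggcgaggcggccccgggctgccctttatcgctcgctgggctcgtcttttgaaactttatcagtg
The letters CAGCTG, an E-box of the kind that basic helix-loop-helix proteins can bind, were searched for on both strands of the 300 bases around the start (250 before, 50 after), where 16.3% of 32851 promoters hold them. None of the 5 marker promoters held these letters in this window.

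**Figure D1:**
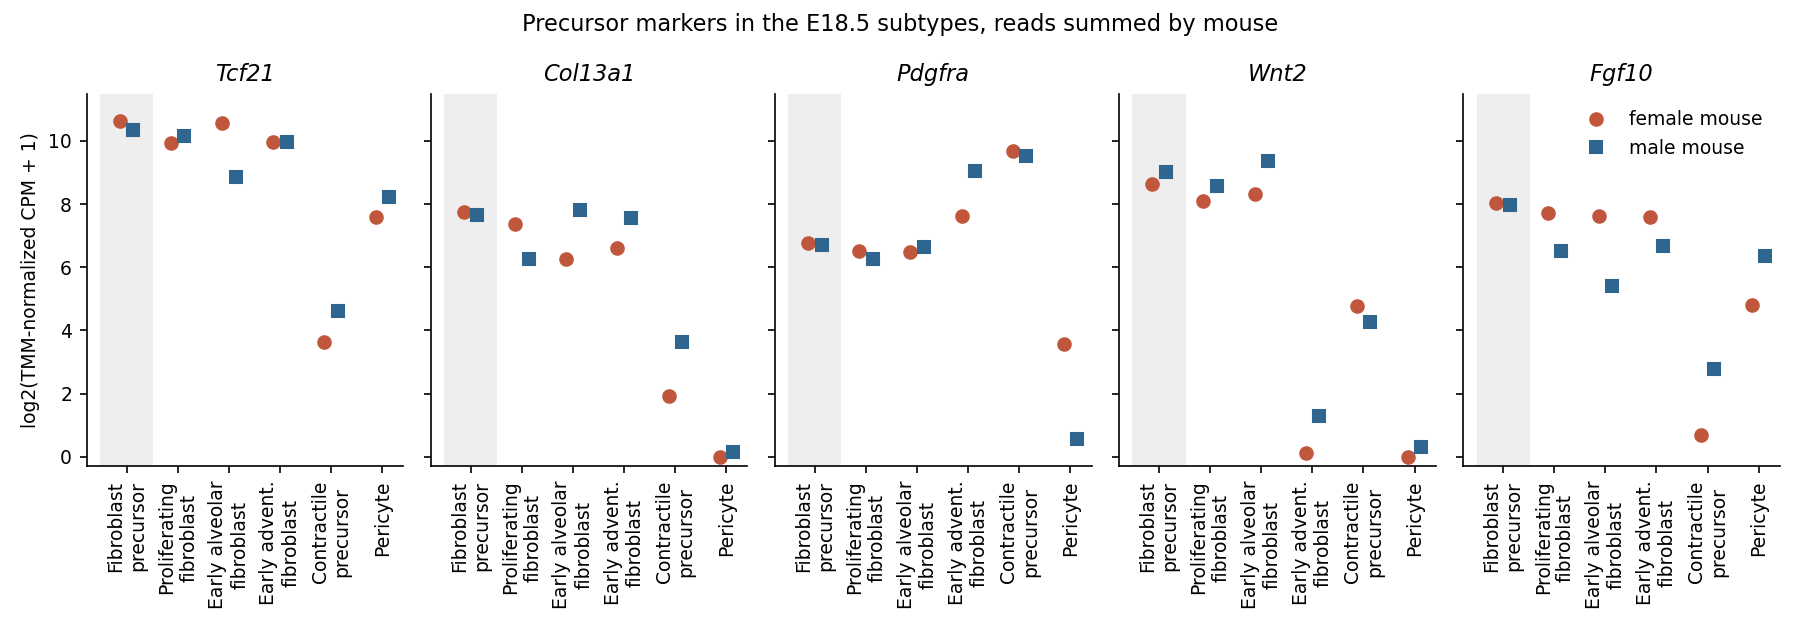
Levels of the 5 marker genes in 6 subtypes at E18.5, as log2(TMM-normalized CPM + 1), with 1 point for the female and 1 for the male. Tcf21 is high in every subtype of the fibroblast side and low in contractile precursors, while Pdgfra is higher in contractile precursors than in fibroblast precursors in both mice.

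Tcf21 stood at 1591 and 1310 CPM in fibroblast precursors, against 11.3 and 23.7 CPM in contractile precursors. The difference passed at 6.38 on the log2 scale (SE 0.682, adjusted p = 0.00441). Early adventitial fibroblasts held 992.3 and 989.3 CPM, proliferating fibroblasts 977.1 and 1131 CPM, and early alveolar fibroblasts 1531 and 466.2 CPM, none of which passed a test against precursors. Tcf21 thus separated the precursors from contractile precursors but not from other fibroblasts. Pericytes held 190.7 and 296.8 CPM, which did not pass (adjusted p = 0.117).

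Wnt2, a ligand that mesenchyme sends to the epithelium, was at 397.2 and 512.4 CPM in precursors and at 0.0829 and 1.45 CPM in early adventitial fibroblasts, the largest contrast among the genes that passed against that subtype (9.59, SE 1.28, adjusted p = 0.0398). In pericytes it was at 2 reads in all, for a ratio of 4917 to 1 with a counting interval of 1361 to 40600. That interval covers counting error only, and reads of 1 cell are not independent molecules. Contractile precursors held 26.2 and 18.4 CPM, which did not pass (adjusted p = 0.206). Early alveolar fibroblasts held 317.3 and 662.7 CPM, overlapping the precursors. A read of Wnt2 was found in 28.6% and 33.3% of early alveolar cells, against 77.2% and 76.7% of precursors.

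Col13a1, a transmembrane collagen, was at 215.0 and 198.7 CPM in precursors and at 1 read in all pericytes together (adjusted p = 0.00645). The ratio was 4446 with a counting interval of 797.9 to 175600, which likewise covers counting error only. In contractile precursors it was at 2.77 and 11.5 CPM (adjusted p = 0.119). Fgf10, the ligand of the epithelial FGF receptor, was at 262.2 and 251.4 CPM in precursors. It was at 0.624 and 5.84 CPM in contractile precursors, a log2 difference of 6.29 with SE 1.39 that did not pass (adjusted p = 0.159), although DESeq2 gave an adjusted p of 3.87e-05. Both genes stood higher in fibroblast than in contractile precursors in both mice, and neither passed there.

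Pdgfra, the receptor for PDGF-A and a widely used fibroblast marker, went against a simple reading of the label. Precursors held 107.7 and 102.7 CPM, below the 812.1 and 730.9 CPM of contractile precursors and the 194.6 and 530.3 CPM of early adventitial fibroblasts. Neither difference passed the test (adjusted p = 0.667 against contractile precursors, where the fit of these 2 subtypes alone gave 0.00282). A read of Pdgfra was found in 52.7% and 53.1% of precursors, in 94.1% and 93.5% of contractile precursors, and in 88.5% and 82.8% of early adventitial fibroblasts. At E18.5, then, Pdgfra was found in a larger share of contractile precursors than of fibroblast precursors.

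The other 4 markers were found in most precursors. A read was found in 99.5% and 99.7% of precursors for Tcf21, 80.2% and 82.4% for Col13a1, 77.2% and 76.7% for Wnt2, and 79.8% and 80.3% for Fgf10. Pecam1, an endothelial gene that precursors should lack, had a read in 14.1% and 17.0% of them and at least 5 reads in 0.235% and 0.299%. Sftpc, the surfactant protein C of alveolar epithelium, had a read in 9.41% and 9.55% and at least 5 reads in 7.76% and 7.46%. The reads per cell of such genes thus differed between genes, and whether they are background was not tested. At least 4 of the 5 markers had a read in 288 of the female's precursors (67.8%) and 242 of the male's (72.2%). Among contractile precursors the share was 2.97% and 2.44%, among early adventitial fibroblasts 26.9% and 31.0%, and among proliferating fibroblasts 57.1% in both mice. All 5 had a read in 140 and 120 precursors. Cells without a read may hold the transcript unsampled, single reads can be background, and whether cells differ was not tested.

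**Figure D2:**
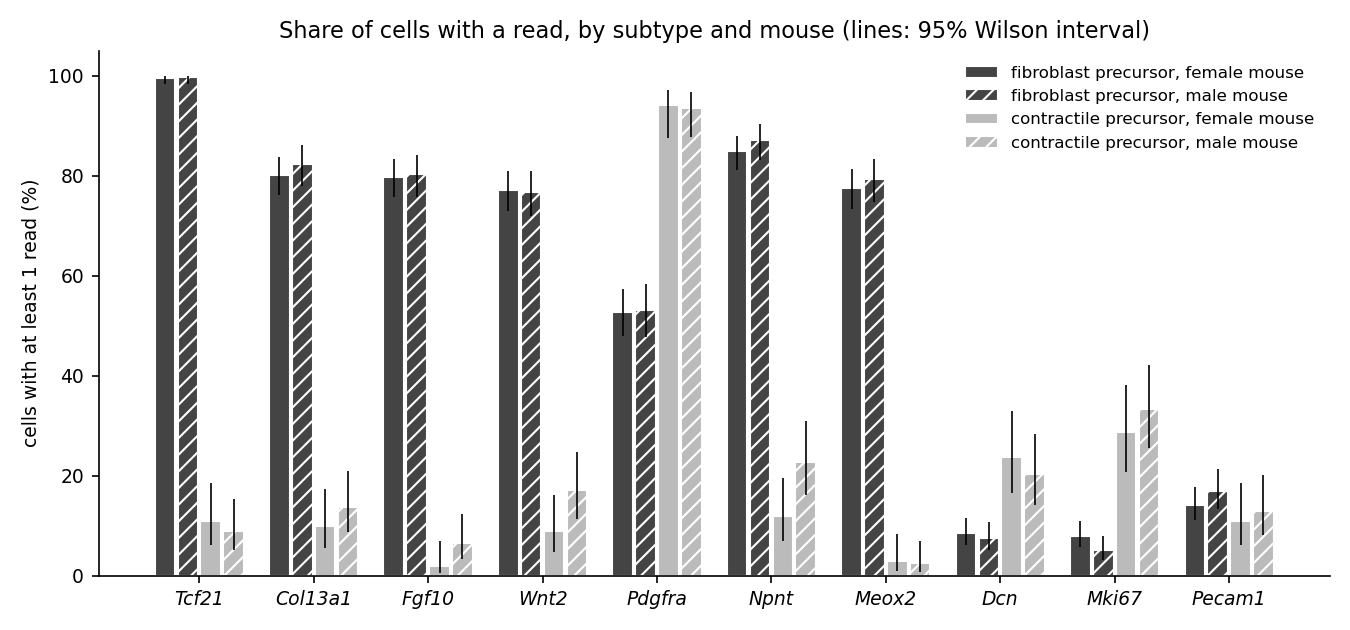
Share of cells, in percent, with at least 1 read of 10 genes in fibroblast precursors and contractile precursors of the female and the male, with lines for the 95% Wilson interval. Tcf21 was found in nearly all fibroblast precursors, Pdgfra in about as many as lacked it, and Pecam1, an endothelial gene, in a minority.

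Between plates the same markers varied within a mouse. Tcf21 was at 1062 and 2475 CPM of all reads on the female's plates and at 1132 and 1667 on the male's. Col13a1 was at 168.8 and 296.8 CPM on the female's plates, with a read in 65.4% and 90.8% of precursors, and at 180.1 and 246.1 CPM on the male's. Wnt2 was nearly level on the female's plates (410.9 and 409.3 CPM) and at 463.4 and 637.4 on the male's. The part of the plate in the comparisons between subtypes was not tested.

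By reads per kilobase of exon the most abundant transcripts of precursors, after CT010467.1, were those of Mfap4, a microfibril-associated glycoprotein of elastic fibres, at 11040 and 9104 CPM per kilobase, and Adh1, an alcohol dehydrogenase that also oxidizes retinol, at 3900 and 4598. Mgp, the matrix Gla protein that limits calcification, stood at 3159 and 3154, and G0s2, an inhibitor of the main triglyceride lipase, at 2341 and 2228. Gyg, the protein primer of glycogen synthesis, ranked 9 at 1405 and 1701. Fos, an immediate early transcription factor, ranked 5 at 2297 and 2698, above G0s2, and its fellow early genes Btg2, Ier2 and Dusp1 ranked 20, 24 and 27. Malat1, a nuclear RNA, ranked 6 and Actb 8. The genes described here were picked from this order by their role. Levels of the 2 mice correlated with r = 0.967 across genes on a log2(CPM + 1) scale, which is a description since genes are not independent.

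Some genes were found in a minority of precursors at high level. Cxcl1, a neutrophil chemokine, had a read in 8.71% and 11.0% of precursors, with a median of 654.1 and 369.5 CPM in those cells. Inmt, a methyltransferase, had a read in 5.88% and 6.27% (433.1 and 397.5 CPM), and Adm, which encodes adrenomedullin, in 12.2% and 14.3% (244.9 and 215.3 CPM). Mki67, a marker of cycling cells, had a read in 8.0% and 5.07% of precursors. With at least 5 reads the shares were 8.71% and 9.25% for Cxcl1, 5.65% and 5.67% for Inmt, 11.3% and 13.4% for Adm and 4.24% and 2.99% for Mki67. Sftpc had at least 5 reads in 7.76% and 7.46% of them. Inmt had no read in the contractile precursors, early adventitial fibroblasts, pericytes or proliferating fibroblasts of either mouse. Whether any of these shares is background was not tested.

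Against contractile precursors, 35 genes were higher and 4 lower in fibroblast precursors, 0.247% and 0.0282% of the genes tested. The genes that were higher included genes of matrix, glycogen, lipid and steroid handling and the transcription factors Tcf21, Meox2 and Snai2. Each of the 39 kept its direction in both mice, and 12 passed whichever of the 4 libraries was left out. The count was 16 without the female and 19 without the male precursor library, and 15 and 19 without the female and the male contractile library. The fit of these 2 subtypes alone passed 843 genes, 40.9% of them higher and all 39 calls among them. By DESeq2 459 genes passed, 53.4% of them higher, against 89.7% by edgeR, and by limma on mean CPM per cell 331, 38.7% of them higher. The 12 were 6030408B16Rik, Fn1, G0s2, Gyg, Hsd11b1, Limch1, Macf1, Mfap4, Ogn, Serping1, Tagln2 and Tcf21.

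Fn1, fibronectin, was at 2865 and 2756 CPM in fibroblast precursors and at 51.4 and 42.5 CPM in contractile precursors (log2 5.90, adjusted p = 0.000405). Hsd11b1, which turns inactive glucocorticoid into its active form, was at 2461 and 2990 against 1.07 and 16.4 CPM (8.70, SE 1.23, adjusted p = 0.0248). Meox2, a homeobox transcription factor, was at 346.1 and 414.6 against 0.635 and 2.48 CPM (8.20, SE 0.885, adjusted p = 0.00441). Their size varied between the mice for 2 of these genes. The log2 difference was 11.17 in the female and 7.51 in the male for Hsd11b1, and 9.09 and 7.38 for Meox2.

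Limch1, an actomyosin regulator, was at 2306 and 2299 against 1.08 and 22.3 CPM (8.10, SE 1.18, adjusted p = 0.0253). Npnt, nephronectin, a basement membrane ligand of an integrin, was at 421.9 and 344.1 against 0.958 and 6.66 CPM (6.84, adjusted p = 0.0292). Bmp3, a member of the TGF-beta family, was at 99.0 and 112.7 against 0.167 and 0.171 CPM (9.28, SE 1.37, adjusted p = 0.0382), and Brinp1 at 118.5 and 97.4 against 0.0780 and 0.00741 CPM (11.58, SE 1.7, adjusted p = 0.0253). Contractile precursors were at 0.171 CPM or less for Bmp3 and Brinp1 in both mice, while the male held 22.3 of Limch1 and 6.66 of Npnt. For these 4 genes both fibroblast precursor libraries were at 97.4 CPM or more.

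Genes of energy and retinoid handling were also higher. Gyg was at 3294 and 3986 against 99.5 and 168.1 CPM (log2 4.81, adjusted p = 0.000635). G0s2 was at 2039 and 1940 against 44.6 and 62.1 CPM (5.22, adjusted p = 0.000635). Adh1 was at 8708 and 10270 against 712.9 and 898.2 CPM (3.57, adjusted p = 0.0131). Contractile precursors still held each of these 3 at 44.6 CPM or more in both mice.

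The 4 genes lower in fibroblast precursors were Mcam, an adhesion receptor of perivascular cells, Cd248, endosialin, Myl9, a regulatory light chain of smooth muscle myosin, and Sparcl1, a matricellular glycoprotein. Cd248 was at 25.9 and 23.2 CPM against 835.1 and 855.3 (-5.12, SE 0.832, adjusted p = 0.0428). Myl9 was at 272.8 and 302.3 against 1889 and 1536 (-2.55, SE 0.321, adjusted p = 0.0102). Mcam was at 0.0392 and 0.159 against 56.0 and 42.1 CPM (-9.33). Precursors still held Acta2, smooth muscle actin, at 983.3 and 1236 CPM, with a read in 68.5% and 73.7% of cells, while Myh11, smooth muscle myosin, had a read in 11.5% and 8.96% of cells and at least 5 reads in 8.71% and 4.48%.

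**Figure D3:**
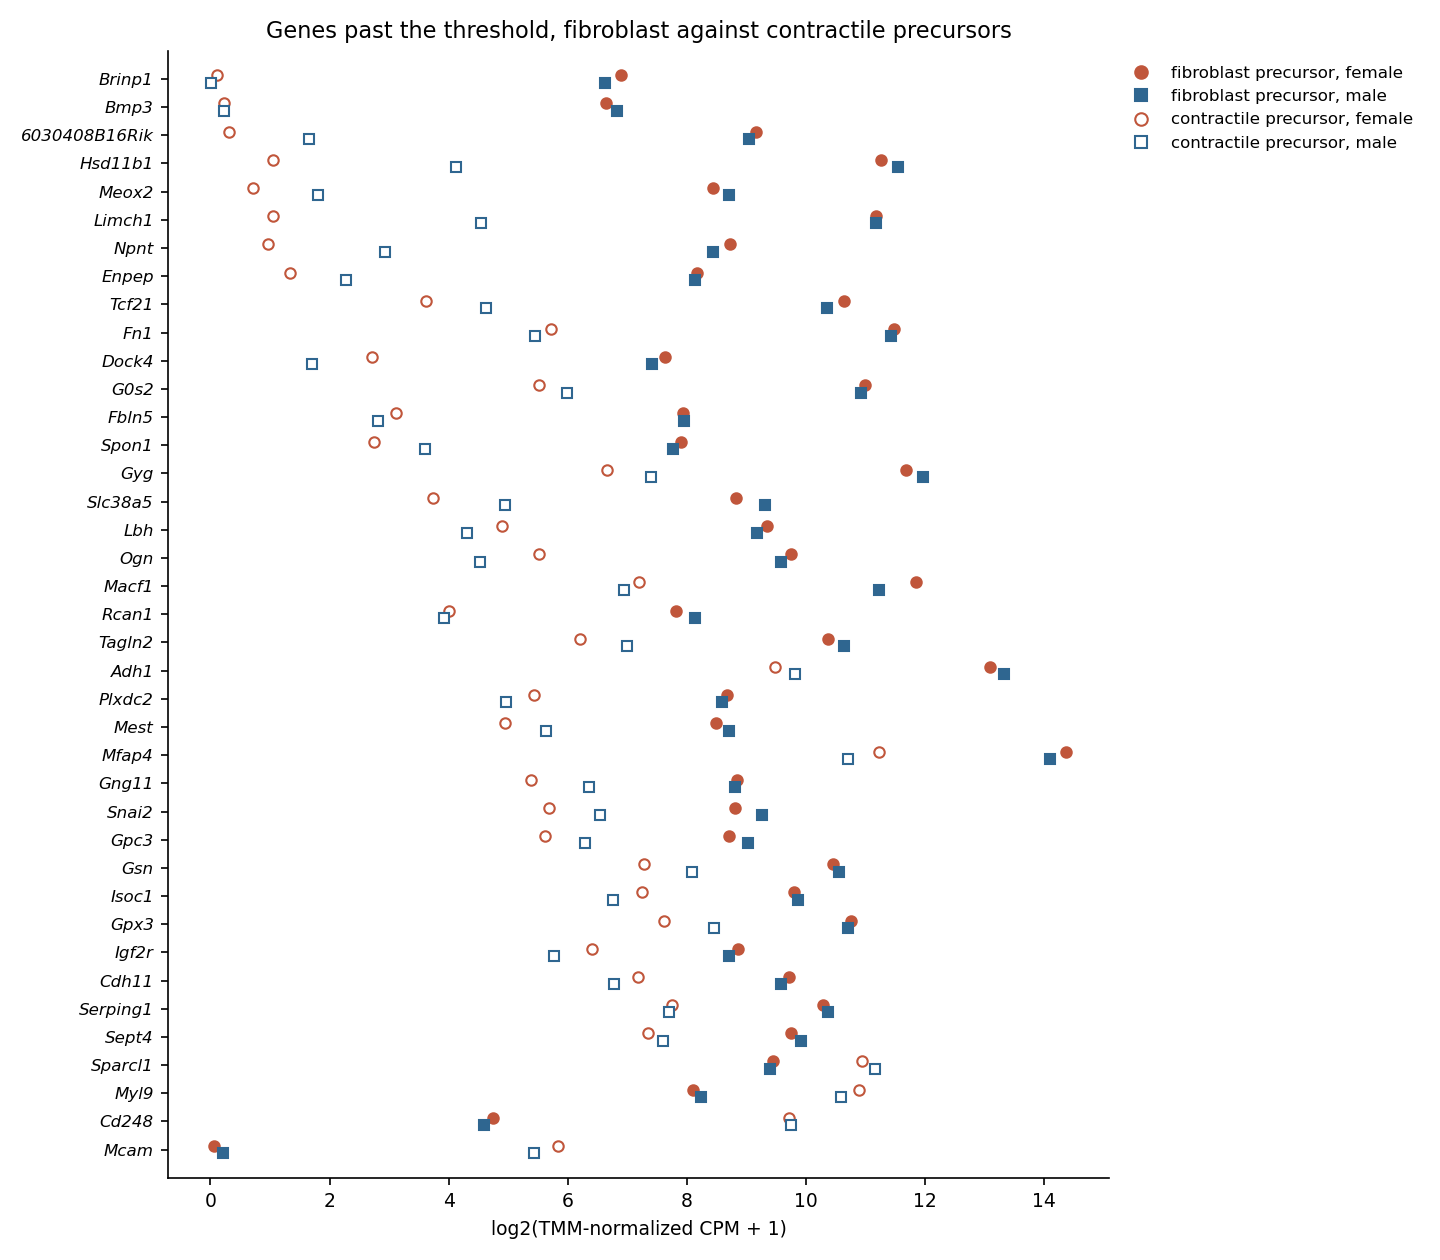
The 39 genes past the threshold between fibroblast precursors and contractile precursors, as log2(TMM-normalized CPM + 1), filled symbols for fibroblast precursors, open ones for contractile precursors, circles for the female and squares for the male. In each row the filled symbols lie apart from the open ones, with 35 genes to the right and 4 to the left.

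Against early adventitial fibroblasts, the cells that surround airways and vessels, 6 genes were higher and 2 lower, 0.0423% and 0.0141% of the genes tested. Leaving out any of the 4 libraries in turn (female or male precursors, female or male adventitial fibroblasts) left 0 calls, so each of these calls rests on all 4. The fit of these 2 subtypes alone passed 252 genes, 32.1% of them higher, with 7 of the 8 calls among them. DESeq2 passed 414 genes, 57.5% of them higher against 75.0% by edgeR, and limma 124, 38.7% of them higher. The 6 were Wnt2, given above, Nebl, Gyg, Sept4, Macf1 and G0s2. Nebl, an actin-binding protein, was at 323.2 and 296.0 CPM in precursors and at 9.08 and 11.4 in adventitial fibroblasts (4.94, SE 0.662, adjusted p = 0.0398). Sept4, a septin, was at 863.1 and 959.6 against 113.6 and 106.5 CPM (3.04, SE 0.289, adjusted p = 0.015), and Gyg was at 331.3 and 410.1 CPM there (3.30, adjusted p = 0.0162).

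Lower in precursors were Mcam, at 6.84 and 24.6 CPM in adventitial fibroblasts (-7.30, adjusted p = 0.0276), and Col1a2, a chain of type I collagen, at 1770 and 1719 CPM in precursors against 5129 and 5169 (-1.56, SE 0.191, adjusted p = 0.0276). Col1a1, its partner chain, was at 2066 and 2195 against 6004 and 7060 CPM and did not pass (-1.62, adjusted p = 0.0529). Dcn, decorin, was at 24.5 and 26.0 against 401.8 and 764.8 CPM (-4.46, adjusted p = 0.103), with a read in 8.47% and 7.46% of precursors. Precursors thus held less of these matrix transcripts than adventitial fibroblasts in both mice, and among them Col1a2 passed.

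Against pericytes, the mural cells of capillaries, 50 genes were higher and 26 lower, 0.352% and 0.183% of the genes tested. Of the genes that were higher, 8 had 0 reads in both pericyte libraries. The genes higher in precursors included fibroblast matrix genes, and those lower included pericyte receptors and signalling proteins. Without the female precursor library 23 genes passed, without the male one 28, without the female pericyte library 36 and without the male one 74. Whichever was left out, 18 of the 76 passed, among them Fn1, Eln, Mgp, Lox, Mcam, Postn and Gucy1a1. DESeq2 passed 1688 genes, 77.7% of them higher against 65.8% by edgeR. The fit of these 2 subtypes alone passed 58, of which 47 were lower in precursors, and it kept 28 of the 76 calls.

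Eln, elastin, was at 2311 and 2247 CPM in precursors and at 384.1 and 261.1 in pericytes (2.82, adjusted p = 0.00276). Lox, which cross-links elastin and collagen, was at 725.7 and 556.4 against 8.07 and 36.9 CPM (4.88, adjusted p = 0.0129). Mgp was at 3750 and 3743 against 227.1 and 414.2 CPM (3.59, adjusted p = 0.00135), and Col1a1 at 484.4 and 356.9 CPM in pericytes (2.34, adjusted p = 0.00276). These matrix genes were thus read at a high level in precursors before birth. In the fit of the 2 subtypes alone Mgp still passed (adjusted p = 0.0357), while Eln (0.0518), Lox (0.086) and Col1a1 (0.0863) did not.

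Bmp3 had 0 reads in pericytes, which makes it at least 761.2-fold higher in precursors against a floor of 3 reads over both pericyte libraries. By the same floor Opcml, a cell adhesion protein, was at least 595.9-fold, Creb3l1, a transcription factor of secretory cells, at least 580.0-fold, and Gpsm2, a spindle orientation protein, at least 326.6-fold higher. These bounds cover counting error only. Pericytes were 28 cells and reads of 1 cell are not independent molecules, so 1 further cell with the gene could lower them, and in the fit of the 2 subtypes alone none of these 4 passed (Bmp3 adjusted p = 0.0819).

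In the other direction stood Postn, periostin, at 1.85 and 10.7 CPM in precursors against 3028 and 5810 in pericytes (-9.76, SE 0.955, adjusted p = 0.00276), and Mcam, at 720.1 and 1979 CPM there (-13.78, SE 1.06, adjusted p = 0.00149). Gucy1a1, a subunit of the nitric oxide receptor guanylate cyclase, was at 112.3 and 87.5 against 3627 and 3766 CPM (-5.22, adjusted p = 0.000449). Pdgfrb, the PDGF-B receptor that pericytes need, was at 21.0 and 24.3 against 819.2 and 1596 CPM (-5.71, adjusted p = 0.00429). The mural receptors were therefore near the floor or low in precursors. Further genes lower in precursors were Agtr1a, an angiotensin receptor (-14.89, adjusted p = 0.023), Trpc6, a cation channel (-13.37, adjusted p = 0.0291), and Ebf1, a transcription factor at 1.30 and 0.263 against 248.5 and 425.9 CPM (-9.43, SE 1.46, adjusted p = 0.0291). Cpa1, a digestive carboxypeptidase, had 2 reads in precursors against 185.7 and 872.0 CPM in pericytes. The ratio was 169300 with a counting interval of 46860 to 1398000, which covers counting error only and not the sampling of cells.

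Against early alveolar fibroblasts 41 genes were higher and 0 lower, 0.289% and 0% of the genes tested. The median log2 difference over all tested genes was 1.16, and 22 of the 41 genes had 0 reads in early alveolar libraries. The 6 named by size were Becn1 (71.9 and 73.1 CPM in precursors), Tollip, Nkiras2, Ecd, Actr1b and Rab13, genes of autophagy, vesicle traffic and other general functions, and Becn1 was at least 346.5-fold higher against a floor of 3 reads over both early alveolar libraries. That bound covers counting error only, and reads of 1 cell are not independent molecules, so a single further cell could lower it. Leaving out either precursor library left 0 calls, leaving out the female early alveolar library gave 1858 and leaving out the male one 132. In the fit of these 2 subtypes alone none of the 41 passed, and 1 other gene did, lower in precursors.

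Early alveolar fibroblasts were shallow and poor in genes. Their medians were 104871 and 529144 reads, and at 100000 reads per cell they held a median of 1045 and 935 genes, against 3189 and 3270 in precursors (unthinned 3792 and 3953). The thinning left out 6 female and 3 male cells of early alveolar fibroblasts and 9 precursors. The female early alveolar library also held 945.6 CPM over the epithelial markers and 582.6 over the immune ones. The part of depth and of these markers in the 41 calls was not tested. The genes that lead precursors were as high there: Macf1 was at 3554 and 3598 CPM, Mfap4 at 15120 and 19360, Limch1 at 2418 and 2396, and Hsd11b1 at 2060 and 6809.

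**Figure D4:**
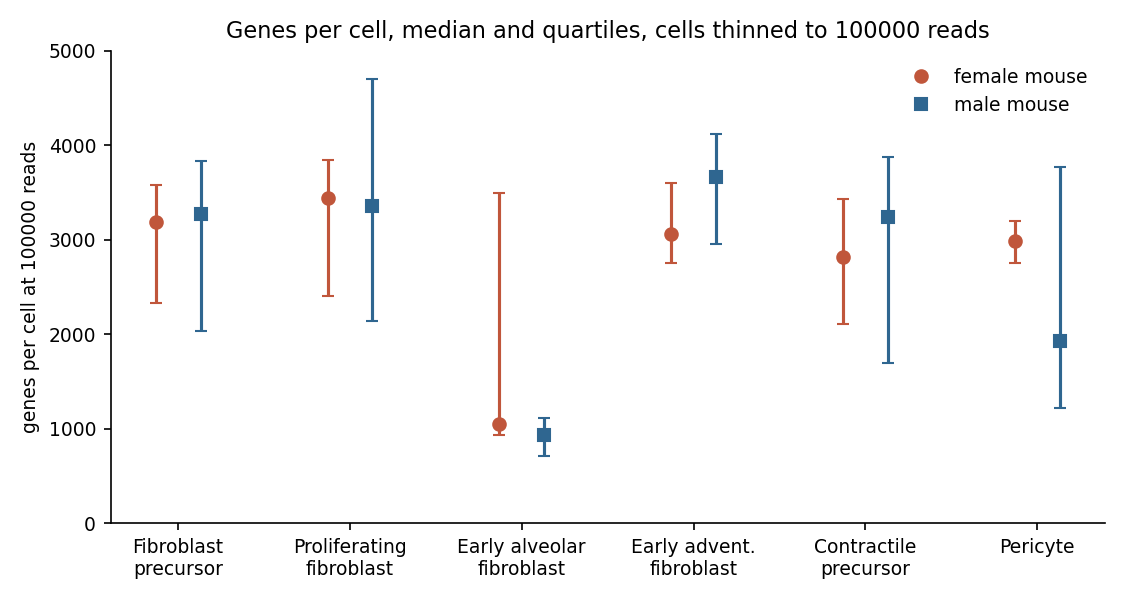
Median and quartiles of genes detected per cell after thinning to 100000 reads, for 6 subtypes in the female and the male. Fibroblast precursors sit at 3189 and 3270 genes, and early alveolar fibroblasts at 1045 and 935.

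Against proliferating fibroblasts 0 genes passed in either direction by edgeR (0% of the genes tested), with a smallest adjusted p of 0.148. At an unadjusted p below 0.05, 483 genes were higher and 189 lower in precursors, DESeq2 passed 344 and limma on mean CPM per cell 112. Mki67 was at 10.1 and 3.89 CPM in precursors and at 781.9 and 1256 in proliferating fibroblasts (-7.44, adjusted p = 0.818, by DESeq2 0.00664). Top2a, a topoisomerase of dividing cells, was at 11.5 and 3.27 against 882.6 and 1578 CPM. The 20 cell division genes summed to 255.7 and 192.4 CPM in precursors, 291.0 and 321.3 in contractile precursors and 8930 and 11910 in proliferating fibroblasts. Pdgfra stood at 90.9 and 75.4 CPM in proliferating fibroblasts and Wnt2 at 274.4 and 375.9, so all 5 markers stood somewhat higher in precursors in both mice, and none passed.

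The secreted signals of precursors are given next, by role. The share of all tested genes that passed, 0.247% higher against contractile precursors, 0.0423% against early adventitial fibroblasts and 0.352% against pericytes, is so low that a list of this size would be near 0 calls at the background rate, and nothing is read from a count of 0 or 1. Of the 25 growth factor genes tested, 0 passed by edgeR against contractile precursors, 1 (Wnt2) against early adventitial fibroblasts and 1 (Wnt2) against pericytes. Against contractile precursors DESeq2 passed 7 of the 25, limma 6 and the fit of these 2 subtypes alone 12, where each also passed more of all genes. Fgf10 and Wnt2 were described above. Vegfd, a lymphangiogenic growth factor, was at 471.3 and 539.8 CPM in precursors and 2.01 and 11.6 in contractile precursors (6.70, adjusted p = 0.0517). Fgf7, an epithelial mitogen, was at 164.1 and 132.5 CPM, close to the 175.0 and 153.8 of contractile precursors.

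Other signals were higher in contractile precursors without passing. Fgf18, a ligand of alveolar growth, had 0.0364 and 0.0312 CPM in precursors and 201.7 and 133.8 in contractile precursors (-12.21, adjusted p = 0.0951). Wnt5a was at 101.3 and 101.4 against 582.9 and 502.7 CPM, and Igf1 at 122.1 and 77.2 against 1970 and 1602 CPM. Wnt5a and Igf1 stood lower in fibroblast than in contractile precursors in both mice.

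Receptor and target genes were read against the same shares. Of the 12 FGF receptor and target genes, the 26 Wnt receptor and target genes and the 11 hedgehog genes tested, 0 passed by edgeR in each of the 5 comparisons, where 0% to 0.352% of all genes passed in 1 direction, so these counts say nothing particular of the pathways. Against contractile precursors DESeq2 passed 2, 4 and 0 of them, limma 1, 6 and 0, and the fit of these 2 subtypes alone 5, 9 and 1. These alternatives also passed more of all genes, as given above. Spry4, an FGF-induced inhibitor, was at 137.1 and 138.5 CPM in precursors and 20.1 and 36.0 in contractile precursors. Lgr6, an R-spondin receptor, was at 0.0280 and 0.0234 against 295.9 and 258.9 CPM (-13.33, adjusted p = 0.0582), and Wif1, a secreted Wnt inhibitor, at 0.0112 and 1.21 against 399.2 and 447.9 CPM. Hhip, a hedgehog antagonist induced by the pathway, was at 324.3 and 247.7 against 1732 and 1693 CPM. Foxf1, a transcription factor downstream of hedgehog, was at 42.6 and 40.1 against 406.2 and 525.7 CPM. Lgr6, Wif1, Hhip and Foxf1 stood lower in fibroblast than in contractile precursors in both mice, and none passed by edgeR.

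Counts in the other lists stand beside 0.247% of all genes passing higher and 0.0282% lower against contractile precursors, and 0.352% and 0.183% against pericytes. Of the 22 transcription factors tested, Tcf21 and Meox2 passed against contractile precursors, both higher. The list as a whole leaned the other way there. Of the 22, 7 stood higher in fibroblast precursors, with a median log2 difference of -1.17 against 0.04 over all tested genes. Tbx4 and Tbx5, which mark lung mesenchyme, stood at 210.4 and 113.7 CPM and at 187.5 and 166.7 CPM in precursors. Of 15 glucocorticoid genes Hsd11b1 passed against contractile precursors, higher, while 4 of the 15 stood higher (median log2 difference -0.94). Of 14 imprinted genes Mest and Igf2r passed there, Mest at 357.6 and 416.7 against 29.7 and 48.4 CPM (3.31, adjusted p = 0.0253). H19, another imprinted RNA, was at 70.2 and 118.0 in precursors against 1134 and 1073 CPM and did not pass. The imprinted genes thus gave values in both directions. Of the 14, 5 stood higher than in contractile precursors (median log2 difference -0.9, against 0.04 over all tested genes). Against early adventitial fibroblasts 2 did, against pericytes 2, against proliferating fibroblasts 3 and against early alveolar fibroblasts 8.

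Among the lipid and retinoid genes Adh1 passed against contractile precursors and against pericytes, where it was at 221.0 and 973.6 CPM (4.22, adjusted p = 0.00449). Plin2, a lipid droplet coat protein, was at 633.8 and 761.7 CPM against 74.7 and 112.4 in contractile precursors without passing (adjusted p = 0.162). Beside the same shares of 0.247% and 0.352%, of 17 elastic fibre genes Fbln5 and Mfap4 passed against contractile precursors, and Eln, Lox and Mfap4 against pericytes. Of 15 collagen genes Col1a1, Col1a2, Col6a1, Col6a2 and Col13a1 were higher than in pericytes. Against early adventitial fibroblasts both lists went the other way. There 1 of the 17 elastic fibre genes (median log2 difference -1.43) and 1 of the 15 collagen genes (median -1.37) stood higher in precursors. The median over all tested genes was 0.18, and Col1a2 passed, lower.

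**Figure D5:**
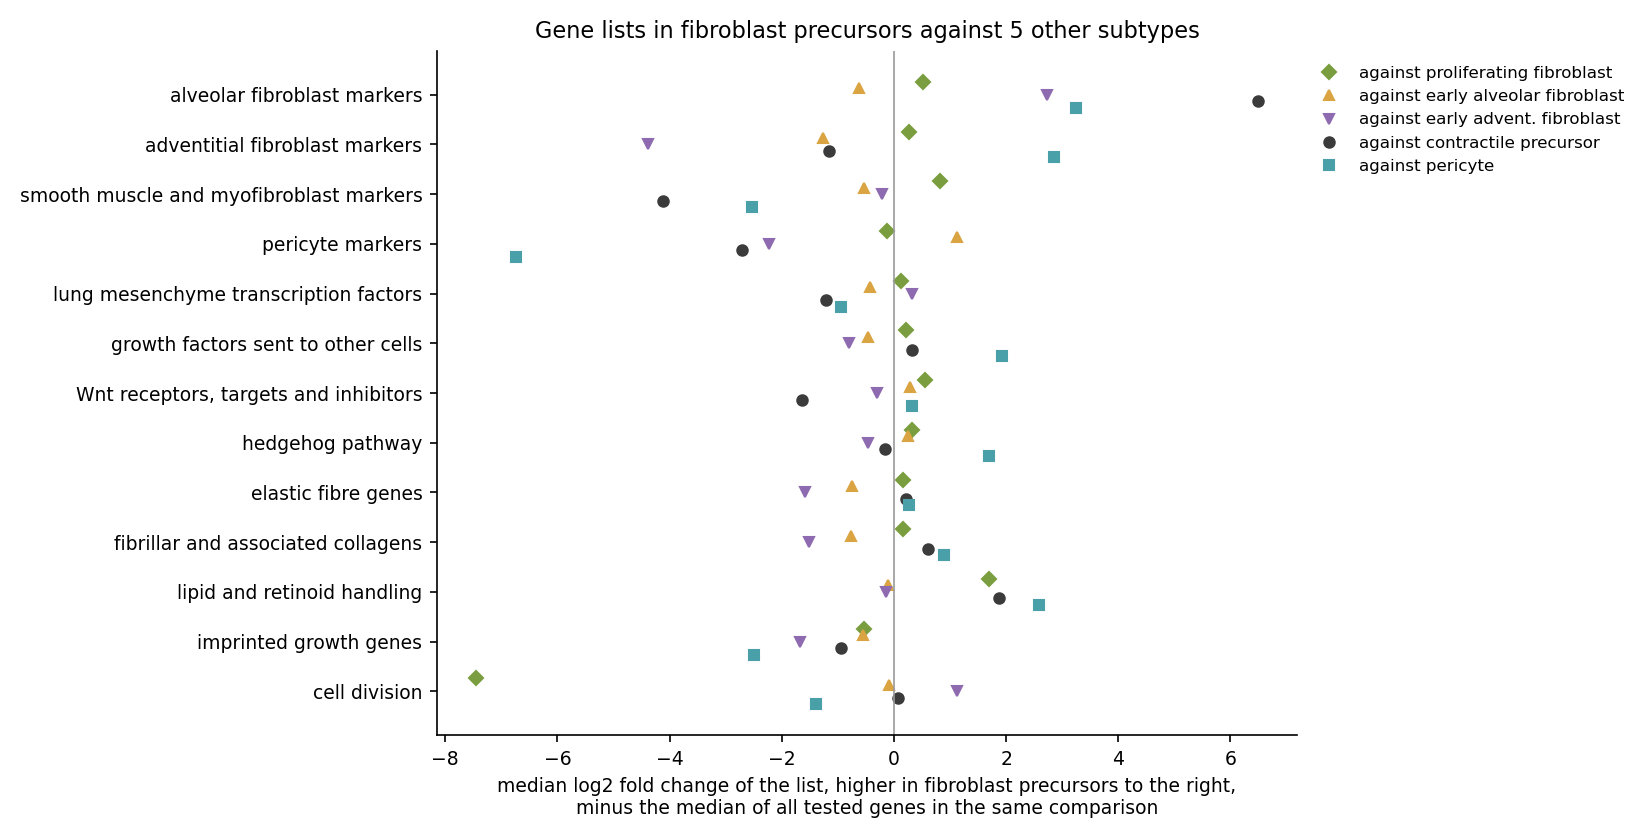
Median log2 difference between fibroblast precursors and 5 other subtypes for 13 gene lists, with genes at 0 reads set to their bound, minus the median of all tested genes. The alveolar fibroblast markers are the list farthest above all genes against contractile precursors and the cell division genes lie far below against proliferating fibroblasts.

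By list, the 10 alveolar fibroblast markers had a median log2 difference of 6.53 against contractile precursors, against 0.04 over all tested genes, and Npnt, Limch1, Macf1 and Mfap4 passed. The 14 smooth muscle and myofibroblast genes had a median of -4.07 with 0 passing by edgeR and 8 by DESeq2. Against early adventitial fibroblasts the adventitial markers had a median of -4.23 (0 of 9 passing, 3 by DESeq2), and against pericytes the 11 pericyte markers had one of -6.24, with Pdgfrb, Postn, Mcam and Ebf1 passing. Most genes of these lists did not pass the test.

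Across comparisons Gyg and Macf1 were higher in precursors in 3 of 5, and 12 genes in 2, among them Fn1, Bmp3, Mfap4, Adh1, G0s2 and Wnt2. None was higher in 4 or more. Macf1, a crosslinker of actin and microtubules, was at 3699 and 2394 CPM in precursors, 145 and 122.3 in contractile precursors (4.47, adjusted p = 0.00103) and 619.9 and 231.5 in early adventitial fibroblasts (2.92, adjusted p = 0.0276). The comparisons share the precursor libraries, so a gene in several of them is not counted as independent support.

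Among genes with at least 20 CPM and a read in at least 25% of precursors of the higher mouse, 7 differed more than 4-fold between the mice, by level alone and without a test. They were the X-linked Xist and Tsix, the Y-linked Kdm5d, Uty, Ddx3y and Eif2s3y, and Cdkn1b. Xist was at 531.5 CPM in the female and 0.305 in the male, Ddx3y at 0.0196 and 80.7, and Cdkn1b, a cell cycle inhibitor, at 46.2 and 11.1. The sex-linked genes matched the labelled sex of both mice.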

How the data were processed

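Counts of reads per gene in each cell are used as the authors deposited them, in a table of 18072 genes by 5480 cells. Per the labels' protocols, libraries were made from total RNA without extraction by a plate-based Tn5 transposase method, and the submitters' processing notes name STAR 2.5.2b, HTSeq 0.10 and genome build GRCh38, a human build named for mouse samples. The annotation, strand setting and cell filters were not given in the sources used here, so reads of paralogs and antisense genes may be split or merged, and values are reads, not molecules. Subtype and mouse come from the labels, and 4274 columns of other ages were not used. No doublet caller was run.

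Reads were summed by subtype and mouse for subtypes with at least 10 cells in each mouse. edgeR 4.0.16 (R 4.3.3) fitted the 12 sums with mouse and subtype as terms (TMM scaling, filterByExpr, quasi-likelihood test, 5 residual degrees of freedom), two-sided, with Benjamini-Hochberg adjustment within each comparison and a threshold of 0.05. The common biological coefficient of variation was 1.07. The mouse term pairs subtypes taken from the same mice. Alternatives used DESeq2 1.42.0, limma 3.58.1 on log2 of mean CPM per cell plus 1, other filters and sums, and cells thinned to 100000 reads. Fold bounds use a floor of 3 reads over a group. Intervals of shares are 95% Wilson and those of read ratios 95% exact binomial, and both cover counting error only. Exon lengths came from GENCODE and promoters from RefSeq. The fitting scripts were tested on simulated data.

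The genes named by size passed the threshold, had at least 20 CPM and a read in at least 25% of cells of each mouse in the higher subtype, and kept their direction in both mice, up to 6 each way. Other named genes came from the marker and gene lists (319 of 321 list genes were in the table) or are called genes chosen after their values were seen. The members and lists were chosen with earlier results of these data known. One gene of the lipid and retinoid list is not reported here.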

Additional observations from a re-analysis of the deposited data

Results flagged for a closer look

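Of the markers, 2 stood in opposite directions in the mice when precursors were set against early alveolar fibroblasts, and the difference between the mice was not tested. Col13a1 was 1.49 higher in precursors on the log2 scale in the female and -0.16 in the male. Wnt2 was 0.32 in the female and -0.37 in the male. The early alveolar libraries held 14 and 24 cells.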

How the results depend on the processing

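Counts of genes past the threshold moved most with the tool and with the samples in the fit. DESeq2 passed 414 genes against early adventitial fibroblasts, 2363 against early alveolar fibroblasts, 459 against contractile precursors, 1688 against pericytes and 344 against proliferating fibroblasts, where edgeR passed 8, 41, 39, 76 and 0, and of those 8, 41, 39 and 76 DESeq2 kept 8, 40, 39 and 76. In the same order limma passed 124, 1511, 331, 483 and 112. A fit of the 2 subtypes alone passed 252, 1 (lower), 843, 58 and 156, with 171, 1, 498, 47 and 149 of them lower in precursors. Without a filter on low counts 20, 48, 67, 102 and 1 passed. The cause was not tested. DESeq2's size factors moved the median log2 difference of all genes by -0.12 against early adventitial fibroblasts, -0.35 against early alveolar fibroblasts and -0.23 against pericytes. Of 56 gene values, DESeq2 left 50 on the same side of the threshold and thinning 48.

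The samples pair by mouse, since all subtypes came from the same 2 mice. With no replicate block 11, 224, 42, 94 and 1 genes passed, and Wnt2 against early alveolar fibroblasts turned to -0.11 from 0.01.

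Alternatives chosen after seeing the data were thinning each cell to 100000 reads (15, 55, 62, 101 and 0 genes) and leaving out the early alveolar libraries (33, 110, 313 and 7 genes against early adventitial fibroblasts, contractile precursors, pericytes and proliferating fibroblasts). Leaving out each library in turn (female and male precursors, then female and male of the other subtype) gave 0 genes in each case against early adventitial and proliferating fibroblasts, 0, 0, 1858 and 132 against early alveolar fibroblasts, 16, 19, 15 and 19 against contractile precursors and 23, 28, 36 and 74 against pericytes. Within the main sequencing runs 9, 32, 46, 77 and 0 genes passed, and with at least 5 cells a sum 10, 31, 30, 54 and 0. Genes detected per precursor, a mean of 3229 over the mice, were 2964 at 50000 reads and 3873 unthinned, and 3189 to 3270 with 1 mouse left out. The share of precursors, 62.9% over the mice, was 57.9 to 67.8% with 1 mouse left out.

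Shares of precursors with a read, as a mean of the mice, were lower when thinned and with at least 5 reads: Tcf21 from 99.6 to 98.6 and 98.5%, Col13a1 from 81.3 to 76.2 and 76.7%, Pdgfra from 52.9 to 46.8 and 46.0%, Wnt2 from 77.0 to 74.5 and 74.7%, and Fgf10 from 80.0 to 75.2 and 75.6%. Values that changed sign had passed no test. Against early alveolar fibroblasts Wnt2 was -0.14 by DESeq2, -0.01 in the fit of these 2 subtypes, -0.02 in the main runs, and -0.39, -0.05 and -0.37 without the female precursor library, the female early alveolar library and the female mouse. Col13a1 was -0.16 without the female mouse, Pdgfra -0.70 thinned and -0.04 without the female early alveolar library, and Tcf21 -0.22 without the male one. Against proliferating fibroblasts Col13a1 was -0.08 without the male proliferating library. The early alveolar and pericyte libraries held 14 to 24 cells, and early alveolar medians were 104871 and 529144 reads.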
